A study of Mus musculus with 7 samples.

Results

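The 8 genes described here encode the core machinery that turns cholesterol into corticosteroids in the adrenal cortex: Star, Cyp11a1, Hsd3b1, Cyp21a1, Cyp11b1, Fdx1, Fdxr and Por. They were taken by symbol from a table of normalized read counts for 35976 genes, and all 8 were found. The libraries came from adrenal glands of mice of the inbred strain C57BL/6J, with no treatment or introduced allele named in the labels. There were 7 libraries, each from 1 pool of glands: E18.5, an embryonic stage shortly before birth (40 glands, sex not determined), P1, postnatal day 1 (16 male glands and 22 female glands), 2 weeks (labelled P2 weeks, 6 glands of each sex) and 12 weeks (labelled P12 weeks, 4 glands of each sex). Whole glands hold cortex, medulla and whatever tissue was removed with them.

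Corticosteroid synthesis begins when the protein encoded by Star moves cholesterol to the inner mitochondrial membrane, where Cyp11a1 cleaves its side chain to give pregnenolone. Hsd3b1 makes progesterone from it in the smooth endoplasmic reticulum, Cyp21a1 adds a hydroxyl group there, and Cyp11b1 completes corticosterone, the main glucocorticoid of the mouse, back in the mitochondrion. The mitochondrial P450 enzymes Cyp11a1 and Cyp11b1 take electrons from NADPH through the reductase Fdxr and the small iron-sulphur protein Fdx1, whereas Cyp21a1 and the other microsomal P450 enzymes take them from Por.

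Reads in genes ranged from 15184210 in 12-week male to 23551289 in P1 male. The 8 genes took 2.85% of these reads before birth, 1.99% (male) and 1.22% (female) at P1, 2.73% (male) and 2.64% (female) at 2 weeks, and 4.01% (male) and 5.12% (female) at 12 weeks. Their share was lowest at P1 and highest at 12 weeks. In a bulk gland, fewer cortical cells and less RNA per cell cannot be told apart. Markers of the zona glomerulosa (the outer cortical layer) and of chromaffin cells (the catecholamine cells of the medulla) were above 0 in all 7 libraries. The summed level of the 8 chromaffin markers ran from 42040 normalized counts at E18.5 to 125652 in 2-week male. Markers of other tissues differed by age. The summed level of 6 liver genes was 278985 before birth, 352209 (male) and 241542 (female) at P1, 12614 (male) and 32883 (female) at 2 weeks, and 412.5 (male) and 406.2 (female) at 12 weeks. Those of 6 skeletal muscle genes summed to 38225, 76444 and 139272 in E18.5, P1 male and P1 female, to 138.8 and 4846 at 2 weeks in male and female, and to 47.5 in each of the 12-week libraries. P1 female also held 1273 normalized counts of 4 Y-linked genes, against 6135 in P1 male and at most 4.41 in the older female libraries. It is called P1 female after its label only. Sex contrasts at P1 thus set P1 male against a library that holds Y-linked transcripts. For the members called from P1 to 12 weeks, the change is also given without it.

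**Figure D1:**
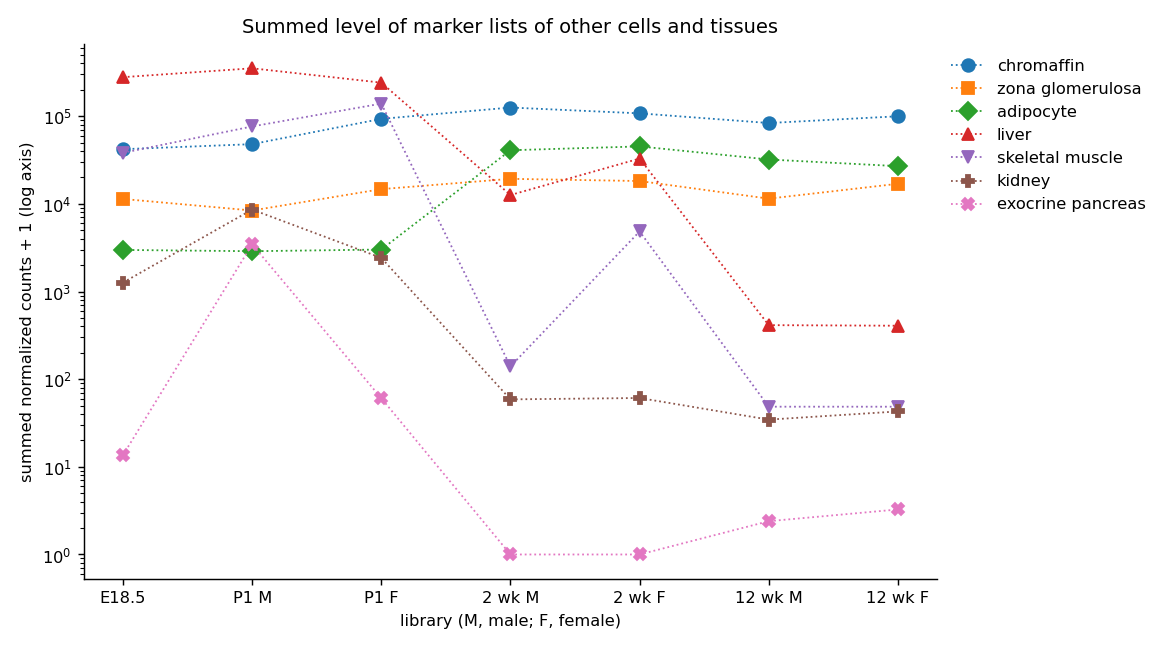
Summed normalized counts plus 1 (vertical log axis) of marker lists for chromaffin cells, zona glomerulosa, adipocytes, liver, skeletal muscle, kidney and exocrine pancreas in each of the 7 pooled libraries (horizontal axis), 1 point per list and library, with dotted lines joining points of 1 list. Liver and muscle lists sit higher in E18.5 and both P1 libraries than in the others, and the adipocyte list is higher at 2 and 12 weeks (26938 to 45238) than before (2882 to 3012).

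Star and Cyp11a1 act at the first steps. Star (ENSMUSG00000031574.8, chr8:25806555-25815982, plus strand, mm10) had 163043 normalized counts before birth (E18.5), 97447 (male) and 47002 (female) at P1, 169893 (male) and 169135 (female) at 2 weeks, and 372882 (male) and 357347 (female) at 12 weeks. It was highest in both 12-week libraries and lowest in both P1 libraries, and its highest level was 7.93 times its lowest. Without P1 female that fold was 3.83, and the widest of the 8 was then that of Hsd3b1, at 5.15. Ranked among all genes of a library, it was 4th or 5th at 2 and 12 weeks, 6th at E18.5, 8th in P1 male and 25th in P1 female. Levels at 2 weeks in male and female did not differ beyond counting error, and the other neighbours in the order did.

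Cyp11a1 (ENSMUSG00000032323.13, chr9:58006411-58027023, plus strand), the side-chain cleavage enzyme, had 74293 normalized counts before birth (E18.5), 50055 (male) and 21943 (female) at P1, 38523 (male) and 40926 (female) at 2 weeks, and 62866 (male) and 64654 (female) at 12 weeks. Its highest level was at E18.5, unlike that of Star, and the 2-week libraries lay below P1 male. All neighbours in its order of libraries differed beyond counting error. The ratio of Star reads to Cyp11a1 reads was 2.19 before birth and 1.95 (male) and 2.14 (female) at P1. It was 4.41 and 4.13 at 2 weeks and 5.93 and 5.53 at 12 weeks, in male and female. This ratio does not depend on the scaling between libraries, and every library at 2 and 12 weeks was above every earlier one.

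Hsd3b1 (ENSMUSG00000027871.16, chr3:98852194-98859794, minus strand), which makes progesterone, had 92484 normalized counts before birth (E18.5), 68986 (male) and 82840 (female) at P1, 182650 (male) and 183870 (female) at 2 weeks, and 225943 (male) and 355249 (female) at 12 weeks. Its 4 libraries at 2 and 12 weeks were all above the 3 earlier ones, and it was the only one of the 8 with a higher level in P1 female than in P1 male. Relative to Cyp11a1, Hsd3b1 reads were 1.24 times as many before birth, 1.38 (male) and 3.78 (female) times at P1, 4.74 and 4.49 times at 2 weeks, and 3.59 and 5.49 times at 12 weeks. Hsd3b6, the related enzyme of the zona glomerulosa, was far less abundant, with 115 to 148 normalized counts in the 3 earliest libraries and 556 to 1699 in the 4 later ones. Hsd3b1 reads outnumbered Hsd3b6 reads by 602 to 701 times in the 3 earliest libraries and by 640 times in 12-week female, with 95% counting intervals that overlap, and by 133 to 173 times in the other 3. Of the 50-base windows of Hsd3b1 transcripts, 4.98% occur in a transcript of another gene, 2.104% in Hsd3b6. Of those of Hsd3b6, 16.1% occur in another gene, 2.17% in Hsd3b1.

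The 200 bases before the Hsd3b1 start are shown because this gene has the only AT-rich stretch among those printed here. They come from RefSeq (GRCm38.p6, the build called mm10), chr3:98859795-98859994, read on the minus strand, and the capitals mark the reverse complement of AGATAA, a hexamer bound by GATA factors.

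Hsd3b1: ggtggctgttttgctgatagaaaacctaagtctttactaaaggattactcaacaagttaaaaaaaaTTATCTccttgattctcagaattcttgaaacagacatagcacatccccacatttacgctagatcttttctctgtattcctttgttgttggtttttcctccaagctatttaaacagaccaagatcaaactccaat

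This stretch was 35.0% G or C with 1 CpG, against medians of 53.0% and 5 CpG over 32851 promoters. AGATAA occurred on either strand in 11.2% of those promoters, taken as 300 bases around each start, so a match is a description and not a site.

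Cyp21a1 and Cyp11b1 carry out the last steps. Cyp21a1 (ENSMUSG00000024365.9, chr17:34801348-34804561, minus strand), the 21-hydroxylase, had 79899 normalized counts before birth (E18.5), 70751 (male) and 46985 (female) at P1, 52494 (male) and 54707 (female) at 2 weeks, and 81456 (male) and 171261 (female) at 12 weeks. The 12-week female library stood far above the other 6, which lay within 46985 and 81456. Cyp11b1 (ENSMUSG00000075604.5, chr15:74834125-74841643, minus strand), the 11-beta-hydroxylase, had 115414 normalized counts before birth (E18.5), 79639 (male) and 39931 (female) at P1, 49939 (male) and 50262 (female) at 2 weeks, and 85022 (male) and 150103 (female) at 12 weeks. It too was highest in 12-week female and lowest in P1 female, and its 2-week levels did not differ beyond counting error. E18.5 was second in its order, above 12-week male.

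Cyp11b2, the aldosterone synthase of the zona glomerulosa, had 2323 normalized counts before birth, 818.3 (male) and 1913 (female) at P1, 4025 and 3176 at 2 weeks, and 2525 and 2219 at 12 weeks. Cyp11b1 reads outnumbered those of Cyp11b2 by 49.7 times before birth, 97.3 (male) and 20.9 (female) times at P1, 12.4 and 15.8 times at 2 weeks, and 33.7 and 67.7 times at 12 weeks. The excess was smallest in both 2-week libraries. Levels of both genes named for the last steps are uncertain, since reads can fit more than 1 copy. Of the 50-base windows of Cyp21a1 transcripts, 26.5% occur in another gene (23.7% in the pseudogene Cyp21a2-ps). Of those of Cyp11b1, 18.1% do (9.66% in Cyp11b2). Of those of Cyp11b2, 19.1% occur in Cyp11b1, so the level of Cyp11b2 and the ratios of Cyp11b1 to it are uncertain too. Exons of Cyp11b1 also overlap those of Gml2 on the opposite strand over 285 bases, 9.005% of its exon length, and exons of Cyp21a1 overlap those of Tnxa over 102 bases (4.77%). Exons of Cyp11a1 overlap the RNA gene Gm17322 on the same strand over 145 bases (3.02%). How reads in such overlaps were counted is not given in the sources used here.

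The electron carriers were less abundant and varied in different ways. Fdx1 (ENSMUSG00000032051.9, chr9:51943306-51963556, minus strand), which hands electrons to the mitochondrial P450 enzymes, had 9954 normalized counts before birth (E18.5), 4929 (male) and 1364 (female) at P1, 5627 (male) and 6134 (female) at 2 weeks, and 8368 (male) and 5478 (female) at 12 weeks. Its highest library was E18.5, and the 1236 reads in P1 female lay far below all others. Its level there has a 95% exact Poisson interval of 1289 to 1443, the widest relative interval among the 8 genes and 7 libraries (a half-width of 5.62%). Fdxr (ENSMUSG00000018861.8, chr11:115268024-115277050, minus strand), which passes electrons from NADPH to Fdx1, had 9046 normalized counts before birth (E18.5), 8109 (male) and 4850 (female) at P1, 9482 (male) and 9435 (female) at 2 weeks, and 12347 (male) and 10488 (female) at 12 weeks. Apart from P1 female its levels were within a narrow band, highest at 12 weeks. Fdx1 reads exceeded Fdxr reads only at E18.5, by 1.10 times, and were 0.281 of them in P1 female and 0.522 to 0.678 of them in the other 5 libraries.

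Por (ENSMUSG00000005514.14, chr5:135670033-135735326, plus strand), the microsomal reductase, had 3903 normalized counts before birth (E18.5), 3643 (male) and 3492 (female) at P1, 2589 (male) and 2550 (female) at 2 weeks, and 2601 (male) and 4234 (female) at 12 weeks. Its highest level was 1.66 times its lowest, a fold that for Fdxr was 2.55 in all 7 libraries and 1.52 without P1 female. Its levels had 12-week female highest and 12-week male among the 3 lowest, which did not differ beyond counting error. Cyp51, Dhcr7 and Sqle of sterol synthesis and the haem oxygenases Hmox1 and Hmox2 also draw on this reductase. Of 7 such genes tested in the limma fit described below, none passed as higher from P1 to 2 weeks. Hmox1 fell (-3.34 on the log2 scale), where 5.89% of all genes rose and 10.5% fell. From 2 to 12 weeks Hmox1 rose and no other gene passed (5.4% and 9.89% of all genes). These counts are near the shares over all genes, and without P1 female none of the 7 passed in either interval. Hmox1 was uneven within the later age, with 116.5 and 141 normalized counts (male, female) at 2 weeks and 2141 and 496 at 12 weeks. Cyp2f2, another of the 7, did not pass in limma, though its level differed widely between ages. It had 555 and 483 normalized counts (male, female) at P1, 14366 and 16540 at 2 weeks, and 115 and 7451 at 12 weeks. A DESeq2 fit called Cyp2f2 higher from P1 to 2 weeks.

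The stretches before the starts of the carriers are shown to set the 3 genes side by side, since Fdx1 and Fdxr serve 1 chain and Por another. All are from RefSeq GRCm38.p6, 200 bases, in the direction of the gene: Fdx1 chr9:51963603-51963802 (minus strand), Fdxr chr11:115276970-115277169 (minus strand) and Por chr5:135688945-135689144 (plus strand, before a start inside the gene span given above). Capitals mark GGGCGG (a GC box) on either strand and the GATA hexamer TGATAA.

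Fdx1: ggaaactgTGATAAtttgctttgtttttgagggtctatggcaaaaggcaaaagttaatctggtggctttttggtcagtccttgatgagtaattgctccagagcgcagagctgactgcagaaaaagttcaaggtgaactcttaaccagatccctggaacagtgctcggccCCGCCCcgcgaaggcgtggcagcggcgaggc

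Fdxr: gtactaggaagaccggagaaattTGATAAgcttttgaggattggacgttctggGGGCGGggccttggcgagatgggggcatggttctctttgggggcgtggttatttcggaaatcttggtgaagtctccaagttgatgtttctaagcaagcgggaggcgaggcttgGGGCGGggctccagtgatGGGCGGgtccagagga

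Por: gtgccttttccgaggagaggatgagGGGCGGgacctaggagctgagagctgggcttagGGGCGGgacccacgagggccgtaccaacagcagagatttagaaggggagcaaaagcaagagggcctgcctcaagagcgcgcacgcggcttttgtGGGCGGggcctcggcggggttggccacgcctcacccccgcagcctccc

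Their G and C content was 51.0%, 56.0% and 67.0% in the order printed, with 8, 10 and 14 CpG. Fdx1 held 1 GC box, Fdxr 3 and Por 3. Fdx1 and Fdxr each held TGATAA, which Por did not. GGGCGG occurs on either strand in 35.7% of the 32851 promoters and TGATAA in 9.05%. CAAGGTCA, the steroidogenic factor 1 motif (1.56% of promoters), its shorter form AAGGNCA (20.3%), which lies within it, the cAMP response element TGACGTCA (1.79%), its part TGACG (20.8%) and TATAAA (13.6%) were also searched on both strands. None of these letters occurred in the windows of Hsd3b1, Fdx1, Fdxr or Por. For Cyp11a1, the 2 RefSeq entries start at other positions than the gene span above, and no sequence is printed. Star, Cyp21a1 and Cyp11b1 are named only.

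**Figure D2:**
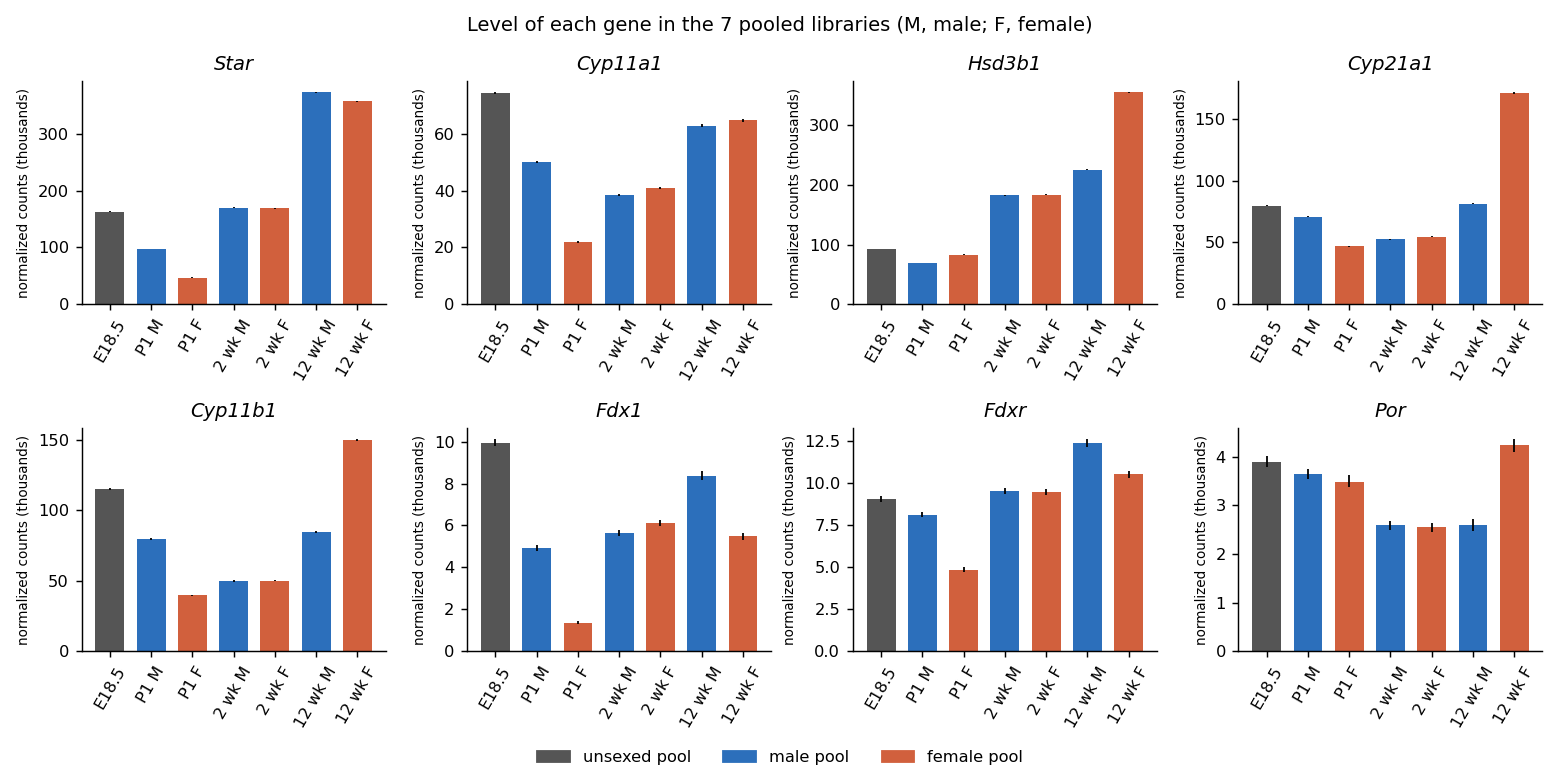
Normalized counts divided by 1000 (vertical axis, a separate scale for each gene) of the 8 genes in the 7 pooled libraries (horizontal axis). Bars are single libraries coloured by sex and black lines are 95% exact Poisson intervals, counting error only. Cyp21a1 and Cyp11b1 are tallest in 12-week female, Cyp11a1 and Fdx1 at E18.5, and Por stays between 2550 and 4234.

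Per kilobase of exon, so that genes can be compared, Hsd3b1 had the highest level of the 8 in all 7 libraries. At E18.5 the levels per kilobase were 49857 for Hsd3b1, 39641 for Star, 37336 for Cyp21a1, 36466 for Cyp11b1, 15465 for Cyp11a1, 3224 for Fdxr, 3207 for Fdx1 and 971 for Por. Fdxr and Fdx1 did not differ there beyond counting error, but over the longest coding transcript they had 4644 and 3608. In 12-week female, Hsd3b1 reached 191509 per kilobase, Star 86882, Cyp21a1 80028 and Cyp11b1 47426. In both P1 libraries Cyp21a1 and Cyp11b1 came before Star, which was then in place 4, and in P1 female Fdx1 was lowest in place of Por. The place of Cyp11a1 depends on the length used, 4804 bases for all its exons joined and 2120 for its longest coding transcript.

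Set against the mean log2 level of the 8 genes in the same library, which removes the scaling between libraries, Por ran from -4.02 in 12-week male to -2.17 in P1 female and Fdx1 from -3.52 in P1 female to -1.90 at E18.5. Star ran from 1.58 in P1 female to 3.15 in 12-week male and Hsd3b1 from 1.32 at E18.5 to 2.78 in 12-week female. Cyp11a1 stayed between 0.32 and 0.9997. The range over libraries was 1.85 for Por, 1.62 for Fdx1, 1.57 for Star and 1.46 for Hsd3b1, and without P1 female 1.13, 1.34, 1.29 and 1.46. Against the median of the 8 instead of their mean it was 1.70, 1.55, 1.71 and 1.83, so no order of the genes is read from it. Such values show unequal change within the group only. Over the 7 libraries, which share depth, scaling and changes in tissue makeup, log2 levels of Star and Fdxr had a Pearson r of 0.95 and those of Cyp21a1 and Cyp11b1 of 0.93. Por had r of -0.15 with Star, -0.23 with Hsd3b1, -0.16 with Fdx1 and -0.29 with Fdxr, and r of 0.61 with Cyp11b1, 0.58 with Cyp21a1 and 0.25 with Cyp11a1. These are descriptions over 7 single pools.

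**Figure D3:**
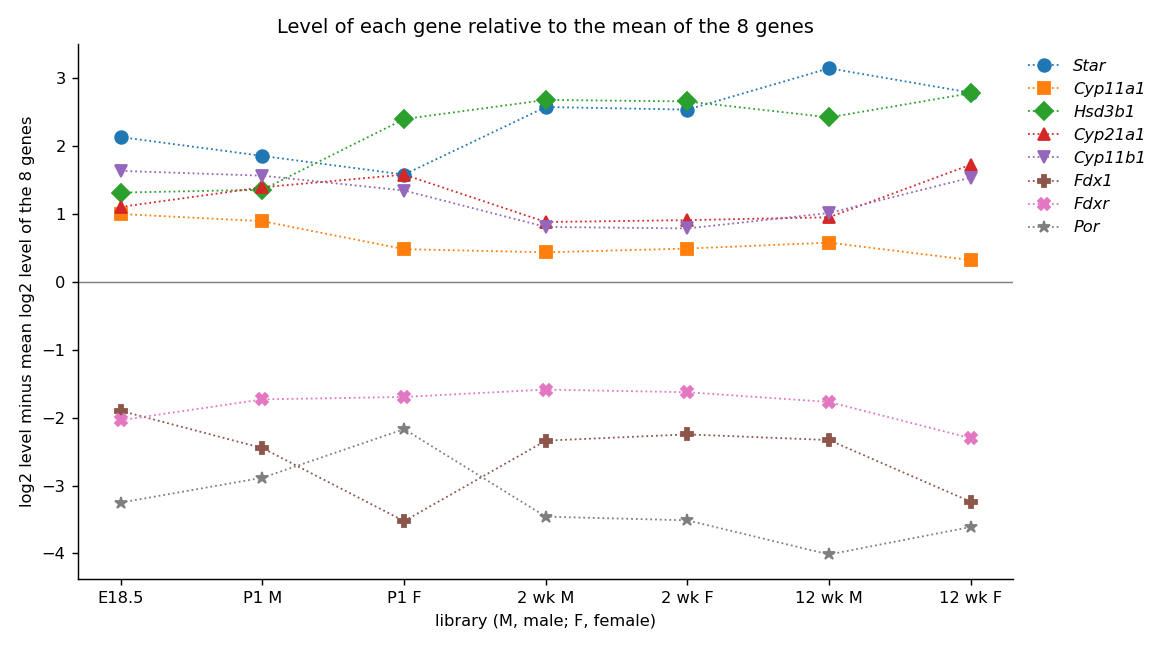
Log2 level of each gene minus the mean log2 level of the 8 genes in the same library (vertical axis) across the 7 libraries (horizontal axis), 1 point per gene and library, with dotted lines joining points of 1 gene. Star and Hsd3b1 lie above 0 in every library and Fdx1, Fdxr and Por below 0, with Fdx1 dipping to -3.52 in P1 female.

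From E18.5 to P1, all 8 genes were lower in both P1 libraries, which are each compared with the same E18.5 library. With 1 library at E18.5 there is no test, and 34.1% of the 16720 genes analysed were lower by any amount in both. In P1 male the ratio to E18.5 ran from 0.495 for Fdx1 to 0.933 for Por, and in P1 female from 0.137 for Fdx1 to 0.896 for Hsd3b1. Only Fdx1 was at least 2-fold lower in P1 male (3.81% of all genes were), whereas Star (0.288), Cyp11a1 (0.295), Cyp11b1 (0.346) and Fdx1 were in P1 female (6.3% of all genes). The median log2 ratio of the 8 was -0.48 in P1 male and -1.22 in P1 female, against 0.03 and 0.05 over all genes. In P1 male the summed liver and muscle markers were above those at E18.5, and in P1 female the muscle markers were. Chromaffin sums were 42040, 48003 and 93291 in E18.5, P1 male and P1 female, and Schwann cell sums 1276, 1286 and 5814. In the same order, kidney sums were 1265, 8609 and 2421 and exocrine pancreas sums 12.6, 3451 and 59.6. Zona glomerulosa sums were 11375, 8399 and 14727, and the erythroid sum was lower in both P1 libraries (114682, 63721 and 60566). Their part in the result was not tested.

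Across the postnatal ages, models with sex as a block were fitted to the 6 postnatal libraries over all 16720 genes with limma, and p-values are Benjamini-Hochberg adjusted over those genes. Replication comes only from setting the male and female library of an age together, so p-values measure the spread between these pools. From P1 to 12 weeks, 4 of the 8 genes rose: Star by 2.43 on the log2 scale (SE 0.371, limma adjusted p = 0.00326), Hsd3b1 by 1.91 (SE 0.316, limma adjusted p = 0.00441), Fdx1 by 1.38 (SE 0.414, limma adjusted p = 0.0366) and Fdxr by 0.86 (SE 0.207, limma adjusted p = 0.0176). Over all genes, 17.6% rose and 23.5% fell. Star was 3.83 times its P1 level in male and 7.60 times in female, and Hsd3b1 3.28 and 4.29 times. The other 4 did not pass: Cyp11a1 0.94 (SE 0.347, limma adjusted p = 0.0692), Cyp21a1 1.03 (SE 0.400, limma adjusted p = 0.0797), Cyp11b1 1.002 (SE 0.421, limma adjusted p = 0.0997) and Por -0.10 (SE 0.215, limma adjusted p = 0.723). The median of the 8 was 1.02 against -0.03 over all genes. Cyp21a1 and Cyp11b1 were 1.15 and 1.07 times their P1 level in male and 3.65 and 3.76 times in female, a difference that was not tested.

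These calls were lost without P1 female, a fit that keeps 1 library at P1. The changes were then 1.92 for Star, 1.87 for Hsd3b1, 0.58 for Fdx1 and 0.55 for Fdxr, each smaller than with all postnatal libraries. The calls also changed without P1 male or without 12-week male. Each such fit keeps 1 library at an age, so a gained or lost call cannot show which library it rests on. With no filter on low values 0 of the 8 passed, where 4691 of 27254 genes did. With no trend 2 of the 8 passed, where 5723 of 16720 genes did. Fdx1 did not pass in edgeR (adjusted p = 0.0568) or DESeq2 (adjusted p = 0.108), nor in limma with equal totals (adjusted p = 0.0514). Cyp11a1 passed in DESeq2 (adjusted p = 0.0164) and in limma with upper quartiles (adjusted p = 0.0491). Summed liver and muscle markers were far lower at 12 weeks than at P1, in the values given above, and their part in the result was not tested. In male libraries alone, all 4 genes were higher at 12 weeks than at P1, by 1.70 times for Fdx1 and 1.52 times for Fdxr.

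By intervals, from P1 to 2 weeks only Hsd3b1 passed, 1.28 higher (SE 0.316, limma adjusted p = 0.0398), where 5.89% of all genes rose and 10.5% fell. Its level was 2.65 times that at P1 in male and 2.22 times in female. The call was lost with no filter (limma adjusted p = 0.190) and with a pseudocount of 5 (limma adjusted p = 0.0508). It was also lost in each fit without a P1 or a 2-week library. Such a fit keeps 1 library at an age and cannot tell which library the call rests on. The call held in edgeR (adjusted p = 0.0305) and DESeq2 (adjusted p = 9.4e-08). Star was 1.32 (SE 0.371, limma adjusted p = 0.0572), 1.74 times P1 in male and 3.60 times in female. It passed in DESeq2 (adjusted p = 0.000131) and in limma with equal totals (adjusted p = 0.0499). Without 12-week male or 12-week female, Star, Fdx1 and Fdxr also passed as higher and Por as lower. Cyp11a1, Cyp21a1 and Cyp11b1 were lower at 2 weeks than at P1 in male, at 0.770, 0.742 and 0.627 of it, and higher in female, at 1.87, 1.16 and 1.26 times. Por was 0.711 and 0.730 of its P1 level in male and female, with a log2 change of -0.47 (SE 0.215, limma adjusted p = 0.184).

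From 2 to 12 weeks, 0 of the 8 passed in limma, although the change was positive for all 8, with a median of 0.66 against -0.03 over all genes. Over all genes 5.4% rose and 9.89% fell. Star had the largest change after Cyp21a1 and Cyp11b1, at 1.11 (SE 0.371, limma adjusted p = 0.0936), and was 2.19 times its 2-week level in male and 2.113 in female. Cyp21a1 had 1.14 (SE 0.400, limma adjusted p = 0.103) and Cyp11b1 1.17 (SE 0.421, limma adjusted p = 0.110), with 1.55 and 1.70 times in male and 3.13 and 2.99 times in female. At an unadjusted p under 0.05 in limma, 3 of the 8 passed, a share near that of all genes (5434 of 16720). DESeq2 on the recovered reads called 2, Star (adjusted p = 0.00121) and Hsd3b1 (adjusted p = 0.0168), and edgeR called 0. Of all 16720 genes, DESeq2 called 1173 higher and 1744 lower, and edgeR 915 and 1481. Calls among the 8 changed without 12-week male, a fit that keeps 1 library at that age. It cannot show which library a call rests on. In these later libraries the liver sum was at most 32883 and the muscle sum at most 4846. At 12 weeks, 1 of the 6 liver genes was at or under 3 reads in each library, and so were 3 muscle genes in male and 2 in female. Their part was not tested.

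**Figure D4:**
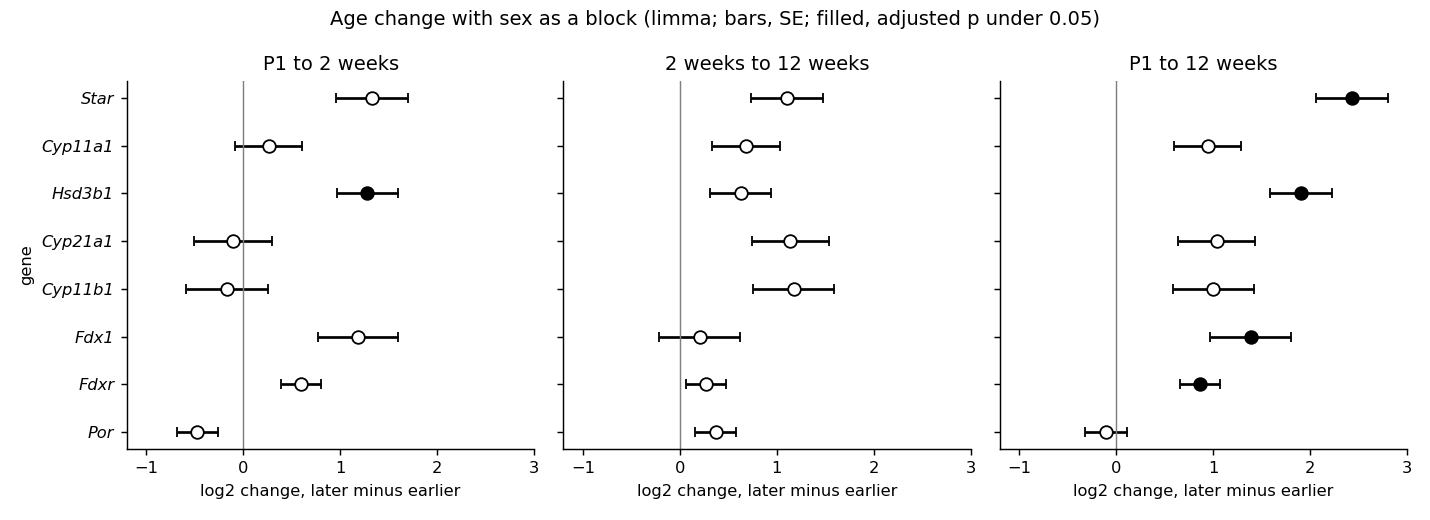
Log2 change of each gene, later minus earlier, on the horizontal axis for the 3 postnatal age comparisons, 1 panel each, with genes on the vertical axis. Points are limma estimates over both sexes with their SE, and filled points have an adjusted p under 0.05: Hsd3b1 from P1 to 2 weeks, none from 2 to 12 weeks, and Star, Hsd3b1, Fdx1 and Fdxr from P1 to 12 weeks.

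Between the sexes over the 3 postnatal ages, with age as a block, 0 of the 8 genes passed (limma adjusted p = 0.999 for each). In limma 0.00598% of all genes passed, and edgeR and DESeq2 called none of the 8 either. At an unadjusted p under 0.05 in limma, 0 of the 8 passed, against 521 of all 16720 genes. These fits included P1 female, which held Y-linked transcripts. Fdx1 was 0.78 higher in male (SE 0.338, unadjusted p in limma = 0.0570), with a ratio that changed sign between ages. Without P1 male or P1 female this difference was 0.24, smaller than that of Cyp21a1 (-0.57), and without either 2-week library it was 1.23. The ages differed, and each is 1 library against 1 with no test, so the intervals below are exact binomial ones and cover counting error only.

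At P1, 6 of the 8 genes were higher in the male library beyond counting error, Hsd3b1 was lower and Por was not separated. The share of all genes that differed beyond counting error was not computed. With this many reads small differences exceed it, so the count is not read as a result about the 8. The P1 female library, as given above, held Y-linked transcripts, which limits its use as a female pool. The male to female ratio was 3.61 for Fdx1 (3.40 to 3.84), 2.28 for Cyp11a1 (2.24 to 2.32), 2.07 for Star (2.05 to 2.096), 1.99 for Cyp11b1 (1.97 to 2.02), 1.67 for Fdxr, 1.51 for Cyp21a1 and 0.833 for Hsd3b1. Por had 1.04 (0.996 to 1.09), an interval that includes 1. At least 2-fold higher in male were 3 of the 8, Fdx1, Cyp11a1 and Star, as were 3.86% of all genes, and none was in female, as 3.18% were. P1 male held summed muscle markers of 76444 against 139272 in P1 female, and higher sums for liver (352209 against 241542), kidney (8609 against 2421) and exocrine pancreas (3451 against 59.6). Lower in P1 male were the sums for chromaffin cells (48003 against 93291), Schwann cells (1286 against 5814) and the zona glomerulosa (8399 against 14727). Scarb1, the receptor that takes up HDL cholesterol, was also higher in the male library, with 48325 normalized counts (male) against 8997 (female). The part of other cells and tissues in this contrast was not tested.

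At 2 weeks the ratios lay between 0.917 and 1.02, and 0 of the 8 genes were 2-fold apart. At that age 0.754% of all genes were at least 2-fold higher in male and 3.7% in female. At 12 weeks the genes went in different directions. Cyp21a1 had a male to female ratio of 0.476 (0.471 to 0.480), Cyp11b1 0.566 (0.561 to 0.572), Por 0.614 (0.581 to 0.650) and Hsd3b1 0.636 (0.632 to 0.640), all lower in male. Fdx1, with 1.53 (1.47 to 1.59), and Fdxr, with 1.18 (1.14 to 1.21), were higher in male. Star (1.04) and Cyp11a1 (0.972) were within a few percent of 1. Only Cyp21a1 was at least 2-fold higher in female, as were 3.42% of all genes, and none was in male, as 4.38% were. The enzymes of the last 3 steps and Por were thus higher in the female library, and the mitochondrial carriers Fdx1 and Fdxr in the male one. Summed liver and muscle markers were equal or nearly so in the 12-week libraries (412.5 and 406.2, and 47.5 in each), whereas summed chromaffin markers were 83619 in male and 99848 in female and adipocyte markers 32076 and 26938. Zona glomerulosa markers summed to 11469 and 16953, and those of the X-zone, a transient inner layer of the mouse cortex, to 1447 and 4196. Against the glomerulosa sum, its markers Cyp11b2 (2525 and 2219) and Hsd3b6 (1699 and 556) were higher in male. Of the 3 X-zone markers, 2 were at or under 3 reads in 12-week male. The part of these cells and tissues in the result was not tested.

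**Figure D5:**
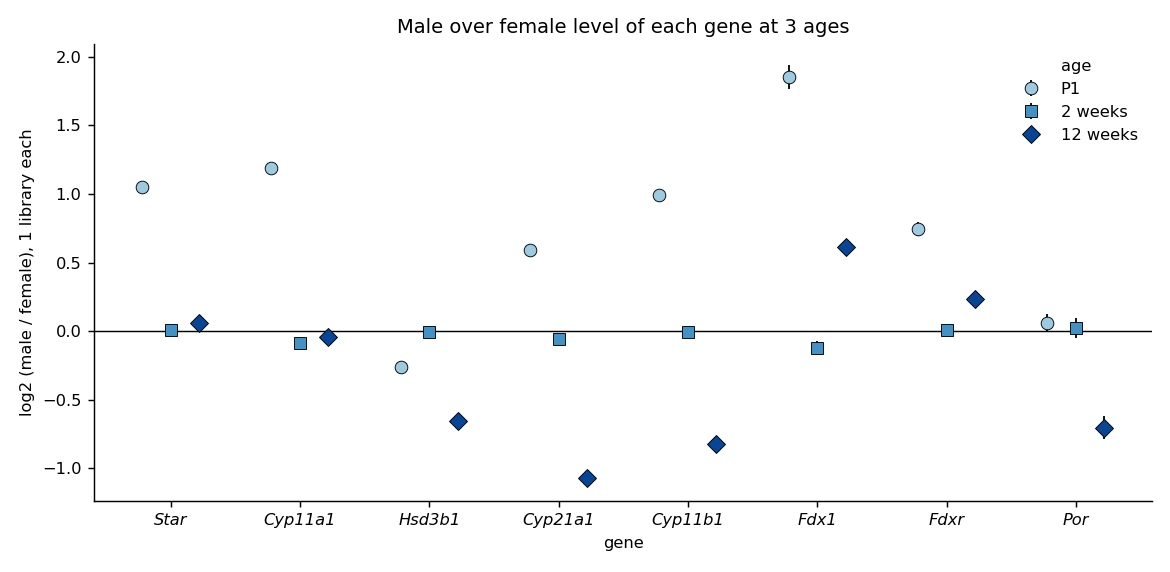
Log2 of the male over female level (vertical axis) of each gene (horizontal axis) at P1, 2 weeks and 12 weeks, 1 library per sex and age. Bars are 95% exact binomial intervals, which are often smaller than the points. The P1 points lie above 0 for 7 genes, up to the ratio of 3.61 for Fdx1, the 2-week points lie near 0, and the 12-week points reach down to the ratio of 0.476 for Cyp21a1.

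The genes that bring cholesterol to the mitochondrion, for example by uptake, storage and transfer, comprised 14 tested genes. From P1 to 2 weeks 4 rose and 0 fell, against 5.89% and 10.5% of all genes, among them Lipe, which frees stored cholesterol esters (1.92), Dbi (0.75) and Akap1 (0.90). From P1 to 12 weeks 5 rose, among them Lipe (1.84), Soat1, which makes the esters (1.25), Tspo (1.4996) and Dbi (1.03), and 0 fell, with a median of 0.28, against 17.6% and 23.5% of all genes. From 2 to 12 weeks 1 rose and Akap1 fell by 0.68, a share near that of all genes (5.4% and 9.89%). Some of these calls were lost without P1 female. That fit keeps 1 library at P1, so the loss is not read as a result about these genes. Scarb1 had 73113 normalized counts before birth and 14961 to 21559 at 2 and 12 weeks, and did not pass with all 6 postnatal libraries.

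Among 12 tested genes of other steroid enzymes and electron donors, 6 rose and 3 fell from P1 to 12 weeks, with a median of 0.61, where 17.6% of all genes rose and 23.5% fell. Hsd3b6 rose by 3.05 and Hsd11b1, which regenerates corticosterone, by 1.93, and Cyp17a1, the 17-hydroxylase, fell by 2.81, from 85.1 and 33.1 normalized counts at P1 to 9.79 and 4.53. Hsd3b3 fell by 5.77, a size that depends on the pseudocount, since it had 2 (male) and 0 (female) reads at 12 weeks. Hsd11b2, which inactivates corticosterone, fell by 1.53, with 7 and 10 reads at 12 weeks. From P1 to 2 weeks Cyp11b2 (1.51), Hsd3b6 (3.28), Cyb5b (1.16) and Srd5a1 (1.88) rose and none fell (5.89% and 10.5% of all genes). From 2 to 12 weeks Cyb5a (0.94) and Hsd11b1 (1.38) rose and Cyp17a1 (-2.26) and Hsd3b3 (-4.16) fell (5.4% and 9.89% of all genes). Without P1 female some of these calls were lost, in a fit that keeps 1 library at P1. A loss there is not read as a result about these genes. Akr1b7, an aldose reductase of the cortex, had 106039 normalized counts before birth and 44186 (male) and 6535 (female) at P1. At 2 and 12 weeks it had 7768 to 20940. It did not pass in any comparison with all postnatal libraries, but did in some fits without 1 of them.

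Of 14 regulators, 2 rose and 2 fell from P1 to 12 weeks, shares near or below those of all genes (17.6% rose and 23.5% fell). Some of these calls were lost without P1 female, a fit that keeps 1 library at P1. Nr4a1, an orphan nuclear receptor induced by corticotropin, rose by 2.45 and Crem, a cAMP-responsive factor, by 2.25, whereas Gata4 fell by 1.76 and Sp1 by 0.52. Nr4a1 was uneven within the age, with 1174 normalized counts in 12-week male and 8493 in 12-week female. Nr5a1, which encodes steroidogenic factor 1, had 7143 normalized counts before birth (E18.5), 5329 (male) and 4798 (female) at P1, 9640 (male) and 9100 (female) at 2 weeks, and 6146 (male) and 11600 (female) at 12 weeks, and did not pass (0.74, limma adjusted p = 0.0709, from P1 to 12 weeks). Mc2r, the corticotropin receptor, lay between 4247 and 8474 and did not pass either. Of 8 genes that supply NADPH, G6pdx (0.93), Idh1 (0.98) and Me1 (1.78) rose from P1 to 12 weeks. Idh2 and Me3 fell, by 0.90 and 1.70, and the median of the 8 was 0.07. Over all genes, 17.6% rose and 23.5% fell. The NADPH calls too were lost without P1 female, and such losses are not read as results about these genes. Between the sexes, 0 genes of any of these lists passed.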

How the data were processed

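RNA from 7 pools of C57BL/6J adrenal glands was sequenced, 1 library per group. The extraction used guanidinium thiocyanate and the libraries a standard Illumina preparation, per the labels' protocols. The submitters' processing notes name CASAVA 1.8.2, HISAT2 2.1.0, HTSeq 0.9.1, DESeq2 2.11.40.6 and mm10. Their options, the annotation and the use of strand are not given in the sources used here.

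The authors deposited 1 table of normalized counts, a signal in which each value is a read count divided by a factor of its library, as worked out from the values. Whole reads were recovered for 100.0% of values within a tolerance of 0.001 reads (largest deviation 0.00026). Size factors recomputed as median ratios over 18040 genes matched the table within a relative 1.87e-11. All sample columns were used.

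Of 35976 genes, 8722 had no read and 16720 had a mean of at least 10 normalized counts and were analysed, all 8 members among them. Values were analysed as log2(normalized count + 1), which understates changes of low genes. The linear models were those of limma 3.58.1 under R 4.3.3 (lmFit, eBayes with a trend). Tests were two-sided, adjusted by Benjamini-Hochberg over all genes, with a threshold of 0.05. All used the 6 postnatal libraries, blocked by age for the sex comparison and by sex for the others. Nothing in the labels gives a second pool of any group, so p-values measure only the spread between these pools. Comparisons of 1 library with 1 have no test. Their 95% intervals (exact Poisson for a level, exact Clopper-Pearson binomial for a ratio) cover only counting error, as the labels name no molecular identifiers and reads may be copies, and 3 reads were taken as the floor. The count test on the recovered reads, edgeR 4.0.16 quasi-likelihood, called 0 genes between the sexes, 2795 from P1 to 2 weeks, 2396 from 2 to 12 weeks and 6754 from P1 to 12 weeks.

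Gene spans, exon lengths, overlaps and shared 50-base windows came from GENCODE M21 (GRCm38), and promoters from RefSeq GRCm38.p6, which held entries for 5 of the 8 members. The members and lists were chosen with earlier results of these data known. The genes named are the 8 members, members of the pathway and marker lists, and those most like the members over the 7 libraries: 5 for their mean log2 profile and 2 for each member, among genes with a mean of at least 100. One gene of the cholesterol supply list is counted but not reported here. Of the list of other steroid enzymes, Hsd3b2 and Fdx1l were under the filter, and Fdx2 was not matched to a row. Other pseudocounts, filters, scalings, tests and left-out libraries were tried. The scripts were tested on simulated data.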

Additional observations from a re-analysis of the deposited data

Results flagged for a closer look

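In 12 cases the log2 ratio of 1 library to another had opposite signs in 2 ages or sexes, with a 95% counting interval that left out 0 for each, and each pair is 1 library against 1, so the difference was not tested. The values below are the first log2 ratio minus the second. Most share the P1 female library, those that do not are cases of Fdx1, and ratios of 1 gene share libraries with each other. Some cases are 1 difference of the same libraries counted by sex and again by age, with its sign kept or reversed. This holds for Cyp11a1 and Cyp21a1 between P1 and 2 weeks and for Fdx1 between 2 and 12 weeks. The number of pairs searched and the share of all genes meeting this rule are not given. The count of cases is therefore not read as a result about these genes.

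The male over female ratio of Cyp11a1 stood at 1.19 (P1), -0.09 (2 weeks) and -0.04 (12 weeks), so P1 differed from 2 weeks by 1.28 and from 12 weeks by 1.23. For Cyp21a1 it stood at 0.59, -0.06 and -1.07, differences of 0.65 and 1.66. For Cyp11b1 it stood at 0.996 (P1) and -0.82 (12 weeks), a difference of 1.82. For Fdx1 it stood at 1.85, -0.12 and 0.61, a difference of 1.98 between P1 and 2 weeks and of -0.74 between 2 and 12 weeks. The signs at 2 weeks rest on ratios near 1.

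From P1 to 2 weeks, Cyp11a1 was lower in male (-0.38) and higher in female (0.90), a difference of -1.28. Cyp21a1 had -0.43 and 0.22 (-0.65) and Cyp11b1 -0.67 and 0.33 (-1.01). From 2 to 12 weeks Fdx1 had 0.57 in male and -0.16 in female, a difference of 0.74. From P1 to 12 weeks Por had -0.49 in male and 0.28 in female, a difference of -0.76.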

How the results depend on the processing

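No paired analysis was possible because each group has 1 library and the labels give no replicate numbers; the limma fits already block by age or by sex. The counts of genes past the threshold in limma were 1 between the sexes, 2737 from P1 to 2 weeks, 2557 from 2 to 12 weeks and 6881 from P1 to 12 weeks. With no filter on low values they were 0 between the sexes, 0 from P1 to 2 weeks and 0 from 2 to 12 weeks (783, 6431 and 6036 at an unadjusted p under 0.05 in limma), and 0 of the 8 members then passed from P1 to 12 weeks. With no trend they were 0 (638 unadjusted), 1672 and 1661. Between the sexes edgeR called 0 (667 unadjusted) and DESeq2 9. Without both P1 libraries, a setting chosen after seeing the data, 4 genes passed between the sexes and 1113 from 2 to 12 weeks. Leaving out 1 library at a time gave 0 to 51 genes between the sexes (51 without 12-week female; 655 and 669 unadjusted where it gave 0, without 2-week male or 2-week female), 2 (without P1 male) to 4461 (without 12-week male) from P1 to 2 weeks, 421 (without 2-week female) to 3035 (without 12-week male) from 2 to 12 weeks and 3207 (without P1 female) to 6271 (without 12-week male) from P1 to 12 weeks; the lone library of an age is then assumed to vary like the others. With equal totals the split from 2 to 12 weeks was 647 higher and 2514 lower, against 903 and 1654, with a median over all genes of -0.20. With upper quartiles it was 1165 and 1467, and from P1 to 12 weeks 3688 and 3512 against 2944 and 3937. Values that changed sign under another scaling were small. With upper quartiles the P1 to 12 weeks change of Por was 0.0059, and the 2-week sex ratios were 0.018 (log2) for Hsd3b1 and 0.018 for Cyp11b1. With equal totals the log2 sex ratio at 2 weeks was 0.054 for Hsd3b1, 0.0037 for Cyp21a1 and 0.054 for Cyp11b1, and that of Cyp11a1 at 12 weeks was 0.00042. Leave-one-out ranges that crossed 0 were, between the sexes, -0.064 to 0.57 for Cyp11a1, -0.57 to 0.27 for Cyp21a1, -0.41 to 0.49 for Cyp11b1 and -0.34 to 0.041 for Por; without both P1 libraries Cyp11a1 had -0.064 and Cyp11b1 -0.41. From P1 to 2 weeks they were -0.37 to 0.89 for Cyp11a1, -0.68 to 0.47 for Cyp21a1 and -0.88 to 0.53 for Cyp11b1. From 2 to 12 weeks they were -0.47 to 0.88 for Fdx1 and -0.0031 to 0.74 for Por, and from P1 to 12 weeks -0.48 to 0.27 for Por. Ranges between libraries without P1 female were also chosen after seeing the data. Against the median instead of the mean of the 8 genes, Cyp11a1 lay below 0 in all 7 libraries, -0.61 to -0.05. Except where leaving out libraries is itself the change, the cause was not tested.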

Other observations

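Among 12247 other genes averaging 100 normalized counts or more, those whose log2 profile over the 7 libraries was most like the mean of the 8 members were Tbce (Pearson r 0.997), Tmem230 (0.995), Slc30a4 (0.995), M6pr (0.991) and Tspan17 (0.990). For single members the closest were Hes6 (0.996) and Ppcdc (0.993) for Star, Dnajc10 (0.994) and 4833420G17Rik (0.987) for Cyp11a1, Hspa1a (0.995) and Ctso (0.994) for Hsd3b1, and Tmem255a (0.993) and Wdr48 (0.986) for Cyp21a1. They were Clns1a (0.982) and Trim34a (0.979) for Cyp11b1, Nupl1 (0.985) and Akr1b8 (0.968) for Fdx1, Gm32584 (0.991) and Vbp1 (0.988) for Fdxr, and Adar (0.992) and Fam214b (0.985) for Por. These genes were picked for their r in a wide search over 7 libraries that share changes in depth and tissue makeup.

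Against the embryonic library, the 12-week libraries had more Star (2.29 times in male and 2.19 in female) and Hsd3b1 (2.44 and 3.84 times). They had less Cyp11a1 (0.846 and 0.870 of it) and Fdx1 (0.841 and 0.550). Cyp21a1 was 1.02 and 2.14 times and Cyp11b1 0.737 and 1.30 times the embryonic level, in male and female. Fdxr was 1.36 and 1.16 times and Por 0.666 and 1.08 times. Both 12-week libraries were compared with the same single embryonic library, with no test. Of the 3 X-zone markers, 2 were at or under 3 reads in 12-week male, with Pik3c2g at 0, and none was in 12-week female.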
